A study of Mus musculus with 16 samples.

Results

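The genes described here are 43 nucleolar factors that build the ribosome, among the 24421 genes counted in bulk RNA-seq of myeloid cells from a mouse tumour. They were taken by gene symbol from a list drawn up with earlier results of these data known, and of them 42 were found under the symbol itself, whereas Utp4 stood under its older symbol Cirh1a. The cells were live, positive for CD45, Kaede and CD11b and negative for TER119 and NK1.1, called macrophages in the labels, and sorted from subcutaneous MC38-Ova colorectal tumours in Kaede transgenic C57BL/6 mice that had no other treatment. Kaede is a fluorescent protein in all host cells that violet light turns from green to red, so that after illumination of the tumour Kaede-red cells had been in it since labelling and Kaede-green cells had entered later. There were 4 groups of 4 libraries, namely each colour at 24h and each colour at 72h after photoconversion, all from 1 batch. The study describes the points in its plot of these libraries as tumours of independent mice. Whether a Kaede-green and a Kaede-red library came from the same tumour is not given. The mice were female and 8 to 14 weeks old when killed.

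Ribosomes are assembled in the nucleolus, where RNA polymerase I transcribes one long precursor RNA that is modified, folded and cut into the ribosomal RNAs while ribosomal proteins are added. Box C/D small nucleolar ribonucleoproteins (snoRNPs) methylate this RNA and H/ACA snoRNPs turn chosen uridines into pseudouridine, both guided by small nucleolar RNAs. Further proteins, grouped here as factors of the small and of the large subunit, help to fold and cleave the precursor, and many leave before the subunits reach the cytoplasm. Cells that grow and divide are known for large nucleoli and high levels of these factors, and the transcription factor MYC is a known activator of many of them. The comparisons ask whether these genes differed between newly arrived and resident tumour CD11b+ cells, and between the times.

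The libraries held 3216858 to 15423085 counts, of which 55.8 to 93.4% were on Rn45s, the precursor of ribosomal RNA, so that 468092 to 5472477 counts per library lay elsewhere. The Kaede-green libraries were the shallower ones for these genes, with a median of 6.0 to 18.0 counts per factor, against 27.0 to 186.0 in Kaede-red libraries. Levels are given as CPM (counts scaled to a common library total) after TMM scaling, whose factors ran from 0.318 to 3.85, and a count of 3 stood for 0.730 to 1.67 CPM in Kaede-green libraries and for 0.0632 to 0.544 CPM in Kaede-red libraries. Markers of the sorted cells, namely Itgam, Ptprc, Csf1r, Adgre1, Cd68 and Lyz2, were found in every group. Fewer cells of a kind and less RNA per cell cannot be told apart in bulk samples.

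All 43 factors passed the filter on low counts, which kept 9642 genes. Per kilobase of exon, Npm1 (nucleophosmin, an abundant histone and ribosome chaperone) was highest at 17.2 CPM per kb over the 16 libraries. Ncl (nucleolin, which binds the precursor RNA) followed at 8.14 and Noc2l, a large subunit factor, at 5.26. The lowest were Wdr12, the partner of Pes1 and Bop1, at 0.129 and Polr1b, the second largest subunit of RNA polymerase I, at 0.224. This order depends on the length used, the union of all exons, which was 10188 bases for Ncl and 2665 for Npm1. In CPM not divided by length, Ncl was highest at 82.94, and Npm1 stood at 45.84. Imp3 was then lowest at 0.9158, below Wdr12 at 1.537. Ncl alone held 24.8% ± 3.04 (SD, n = 4) of the counts of the factors in Kaede-green cells at 24h and 21.4% ± 2.01 in Kaede-red cells at 72h. Of the 43 factors, 7 (Gar1, Rrp1b, Wdr12, Wdr75, Polr1b, Utp18 and Imp3) were at 0 counts in at least 1 library, and the Kaede-red libraries had none at 0.

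No factor passed the test of Kaede colour over both times, and the values of the 43 lay on both sides of 0. In that comparison 0 of 43 factors passed between Kaede-red and Kaede-green cells (edgeR quasi-likelihood test, Benjamini-Hochberg adjusted p under 0.05), whereas 20.3% of all genes tested did. At an unadjusted p under 0.05, 4 of 43 factors stood against 32.5% of all genes, and DESeq2 called 0 of 43 against 18.5% of its genes. The median log2 fold change was 0.00 over the factors and 0.06 over all genes, with 21 factors above and 22 below 0 and a range of -0.56 to 0.76. With each library's share of Rn45s as a covariate the factors' median was 0.28, with 36 of 43 above 0 and none called, while the median of all genes was 0.07. Within each time this share did not overlap between the colours. It was 86.5 to 93.4% in Kaede-green and 66.2 to 84.9% in Kaede-red libraries at 24h. At 72h it was 79.05 to 91.0% and 55.8 to 73.8% in the same order. The share and the colour thus cannot be told apart in that fit. Without the covariate the lowest adjusted p was 0.0679.

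These missed tests do not show that the factors were equal. The standard error of a factor's log2 fold change over both times had a median of 0.28, close to the 0.27 of all genes, and the 95% confidence interval lay within a change of 1 on the log2 scale, either way, for 31 of 43 factors (51.7% of all genes). For the single times the intervals were wider, and this held for 17 of 43 factors at 24h and for 15 of 43 at 72h. The summed level of the factors at 24h was 334.8 ± 101.2 CPM (SD, n = 4) among Kaede-green libraries and 369.2 ± 85.8 CPM among the Kaede-red ones. Its 72h values were 396.4 ± 69.3 CPM and 313.5 ± 30.4 CPM in the same order.

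**Figure D1:**
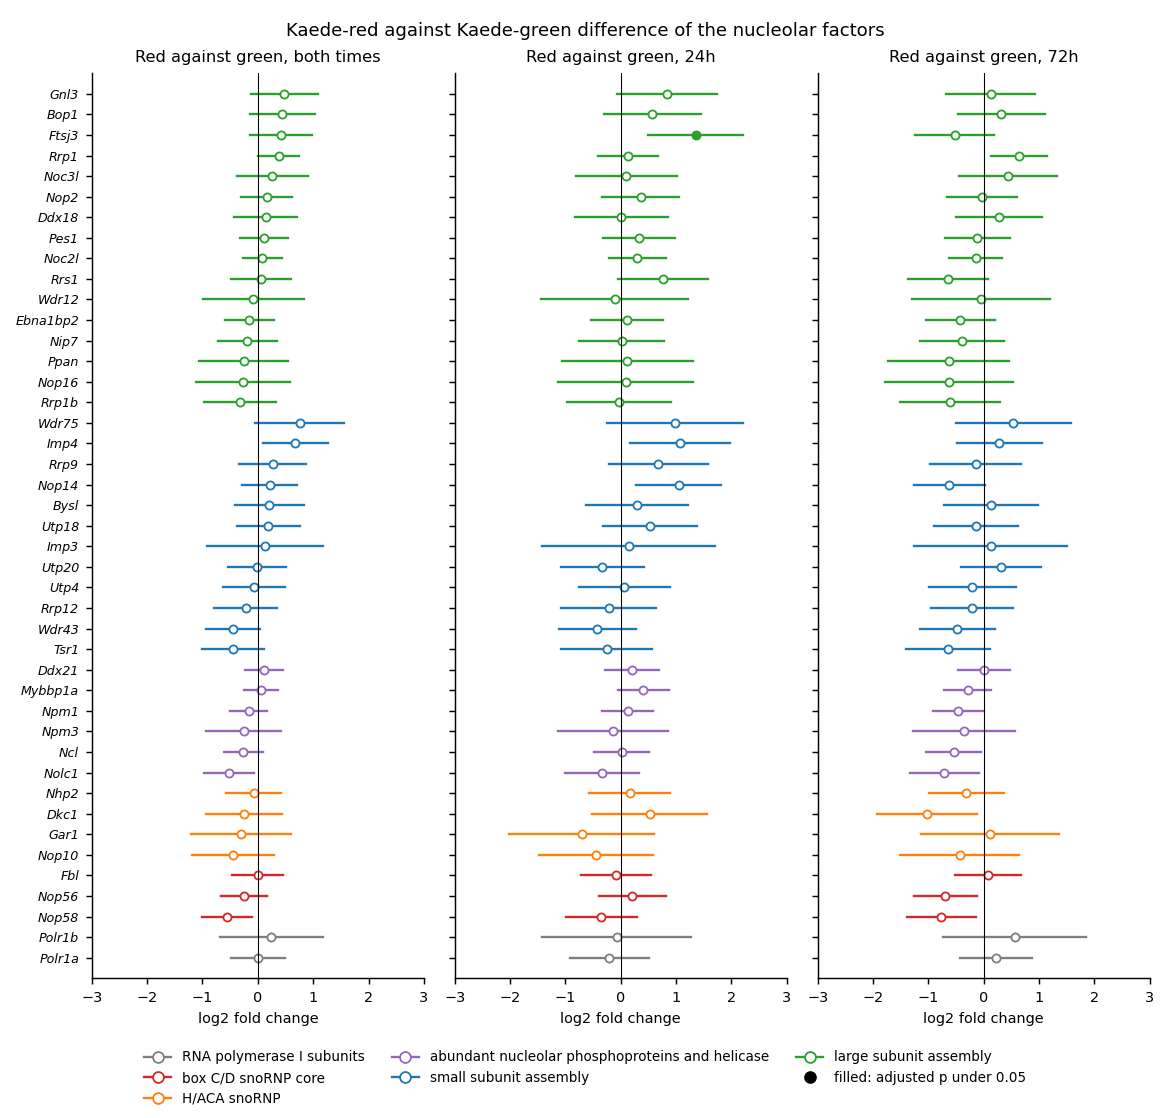
Log2 fold change (x axis) of Kaede-red against Kaede-green cells for each of the 43 factors (y axis, grouped by role in colour), for both times together, then for 24h, then for 72h, with bars for the 95% confidence interval. Filled points are factors with an adjusted p under 0.05, of which there is 1, Ftsj3 at 24h.

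At 24h, 1 of 43 factors was called, against 7.5% of all genes. That gene was Ftsj3 on chr11:106249142-106256079 (minus strand, GRCm38), a methyltransferase of large subunit precursors. It stood at 0.558, 1.64, 3.57 and 6.95 CPM in Kaede-green libraries 1 to 4, which were 1, 4, 14 and 17 counts. In Kaede-red cells it stood at 6.85, 5.11, 9.98 and 12.2 CPM. All Kaede-red libraries but replicates 1 and 2 thus lay above all Kaede-green ones, and those overlapped with Kaede-green replicate 4 alone. Ftsj3 was higher in Kaede-red cells by 1.36 on the log2 scale (95% interval 0.50 to 2.22, edgeR adjusted p = 0.0430), and DESeq2 also called it (adjusted p = 0.0469). The call rested on few counts in the Kaede-green libraries. The adjusted p was 0.130, 0.128 or 0.0982 without Kaede-green 24h replicate 1, 2 or 3, 0.0902 or 0.146 without Kaede-red 24h replicate 3 or 4, 0.0512 without Kaede-green 72h replicate 2, and 0.0512 or 0.0517 without Kaede-red 72h replicate 1 or 2. In the fit of the 24h libraries alone it was 0.0757, and with the share of Rn45s as a covariate it was 0.0594.

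Other factors with their largest values at 24h did not pass. Imp4, an RNA-binding protein of early small subunit precursors (chr1:34439851-34449356), stood at 3.35, 3.69, 1.27 and 1.23 CPM in Kaede-green libraries and at 4.39, 5.47, 5.08 and 4.14 CPM in the Kaede-red ones. The groups did not overlap, and the log2 fold change was 1.08 (95% interval 0.17 to 1.98, adjusted p = 0.148). Imp4 was the only factor without overlap at 24h, 1 of 43 against 12.5% of all genes. Nop14, another small subunit factor, was named after its values were seen. Its levels were 3.90, 2.05, 2.55 and 6.54 CPM in Kaede-green libraries and 5.18, 5.35, 10.5 and 9.50 CPM in the Kaede-red ones. Kaede-green replicate 4 lay among the Kaede-red libraries, and the log2 fold change was 1.05 (0.28 to 1.82, adjusted p = 0.0878). In all, 29 of 43 factors were above 0 at 24h, with a median of 0.12 against 0.05 over all genes (and of -0.02 without Kaede-green 24h replicate 2), and 3 of 43 had an unadjusted p under 0.05 against 20.8% of all genes. DESeq2 called 1 of 43 against 8.3%.

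At 72h most values lay below 0 in every role group but the RNA polymerase I subunits, with 11 of 16 large and 7 of 12 small subunit factors below. Called were 0 of 43 factors by edgeR (16.8% of all genes) and 0 of 43 by DESeq2 (15.4%). Of the factors, 28 of 43 lay below 0, with a median log2 fold change of -0.20 against 0.03 over all genes, and 6 of 43 had an unadjusted p under 0.05 against 29.9% of all genes. Those 6 were Nop58, Nop56, Nolc1, Ncl and Dkc1, with values below 0, and Rrp1, with a value above 0. The direction of the group turned with the Rn45s share as a covariate, where the median at 72h was 0.10, 28 of 43 factors were above 0 and none was called. Because that share did not overlap between the colours at 72h, its part and that of colour cannot be told apart. At 72h the libraries of both colours did not overlap for 4 of 43 factors against 22.6% of all genes.

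Nop56 and Nop58 are the paired scaffold proteins of the box C/D snoRNP. Nop56 (chr2:130274430-130279313) stood at 21.6, 20.2, 13.1 and 14.6 CPM in Kaede-green libraries and at 10.3, 11.02, 9.83 and 11.1 CPM in the Kaede-red ones at 72h. The highest of the Kaede-red libraries stayed under the lowest Kaede-green one, with a log2 fold change of -0.70 (95% interval -1.27 to -0.13, adjusted p = 0.0835). Nop58 (chr1:59684971-59719044) gave 16.4, 13.1, 9.0 and 8.06 CPM against 7.20, 6.38, 6.35 and 7.01 CPM, again with no overlap. Its log2 fold change was -0.77 (-1.39 to -0.14, adjusted p = 0.0826). Both fell just outside the threshold, and in the fit of the 72h libraries alone they passed it, at an adjusted p of 0.0126 for Nop56 and 0.0191 for Nop58. With each of the 16 libraries left out in turn the adjusted p ran from 0.0317 to 0.209 for Nop56 and from 0.051 to 0.265 for Nop58, and with the Rn45s share as a covariate the values were -0.12 and -0.02. Fbl (fibrillarin, the methyltransferase of the same particle) had a log2 fold change of 0.08 at 72h (-0.51 to 0.67, adjusted p = 0.897). The difference between Fbl and its partners was not tested.

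The 24h libraries of Nop56 were widely spread. In Kaede-green cells at 24h it stood at 4.46, 6.96, 13.2 and 22.1 CPM, so that replicates 1 and 2 were low and replicate 4 was as high as any 72h library. Nop58 gave 5.02, 6.14, 17.3 and 18.8 CPM in the same libraries. The Kaede-red libraries at 24h gave 11.2, 10.6, 14.7 and 18.7 CPM for Nop56 and 6.5, 8.15, 11.4 and 12.4 CPM for Nop58, with replicates 3 and 4 the higher ones. The summed level of the 43 factors followed the same split, at 256 and 246 CPM in Kaede-green replicates 1 and 2 against 382 and 455 CPM in replicates 3 and 4, and at 292 and 298 CPM against 432 and 454 CPM in Kaede-red cells. In Kaede-red replicates 1 and 2 at 24h, Rn45s took 66.2 and 68.2% of all counts, and in replicates 3 and 4 it took 83.1 and 84.9%. In Kaede-green replicates 1 to 4 at 24h it took 91.0, 86.5, 91.6 and 93.4%. Mki67, a gene of dividing cells, stood at 9.48, 12.7, 19.6 and 18.8 CPM in these Kaede-green libraries. In Kaede-red replicates 1 to 4 at 24h Mki67 stood at 8.78, 9.85, 21.6 and 23.3 CPM. The part of the Rn45s share or of dividing cells in the split was not tested.

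Over both times Nop58 had the lowest adjusted p of all factors, with a log2 fold change of -0.56 (95% interval -1.0 to -0.11, adjusted p = 0.0679). With each of the 16 libraries left out in turn the adjusted p ran from 0.0199 to 0.184 and passed in 4 cases, namely without Kaede-green 24h replicate 1 or 2, Kaede-green 72h replicate 4 or Kaede-red 24h replicate 4. With the Rn45s share as a covariate its direction turned, at 0.06 (adjusted p = 0.978). Nop56 was at -0.25 (-0.66 to 0.17) and Fbl at 0.00 (-0.46 to 0.46). All 3 box C/D core genes were thus at or below 0 over both times and none was called.

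The 4 genes of the H/ACA particle, whose catalytic subunit is Dkc1 (dyskerin, the pseudouridine synthase), were all below 0 over both times, from -0.44 for Nop10 to -0.07 for Nhp2, and none passed. With the Rn45s share as a covariate 3 of the 4 were above 0, all but Nop10. With single libraries left out Dkc1 ran from -0.395 to 0.114 over both times, so its direction also turned there. Dkc1 had the lowest value of all factors at 72h. It stood at 6.94, 3.66, 4.86 and 1.82 CPM in Kaede-green libraries and at 1.64, 2.35, 1.51 and 2.55 CPM in the Kaede-red ones, which overlapped through Kaede-green replicate 4. The log2 fold change was -1.03 (95% interval -1.94 to -0.13, adjusted p = 0.110), against 0.52 (-0.51 to 1.56) at 24h. Gar1 had the lowest value at 24h, -0.71 (-2.02 to 0.60), and was at 0.11 at 72h.

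Of the abundant phosphoproteins and the helicase Ddx21, 5 of 6 were below 0 at 72h and 2 of 6 at 24h, with 0 of 6 called at either time. Ncl stood at 115, 132, 85.6 and 61.6 CPM in Kaede-green libraries and at 61.0, 56.3, 66.1 and 86.3 CPM in the Kaede-red ones at 72h, and the groups overlapped. Its log2 fold change was -0.54 (95% interval -1.04 to -0.05, adjusted p = 0.122), and the direction turned to 0.13 with the Rn45s share as a covariate. At 24h Ncl was at 70.8, 56.9, 104 and 97.3 CPM in Kaede-green libraries and 57.5, 64.2, 97.8 and 115 CPM in the Kaede-red ones, a log2 fold change of 0.02 (-0.47 to 0.52). In both colours at 24h replicates 3 and 4 were the higher ones.

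Npm1 gave values of a similar size. It stood at 48.6, 63.8, 47.7 and 40.6 CPM in Kaede-green libraries and at 28.6, 35.3, 43.4 and 39.2 CPM in the Kaede-red ones at 72h (log2 fold change -0.46, 95% interval -0.91 to 0.00, adjusted p = 0.170), which turned to 0.09 with that covariate. At 24h the levels were 30.7, 35.2, 47.6 and 70.8 CPM in Kaede-green libraries and 40.8, 40.9, 63.1 and 57.2 CPM in the Kaede-red ones, a log2 fold change of 0.12. The spread of the Kaede-green libraries covered all Kaede-red ones there. Nolc1, a chaperone of snoRNPs also known as Nopp140, had the second lowest value over both times, -0.52 (-0.98 to -0.06, adjusted p = 0.101). Its 24h levels were 3.90, 6.14, 10.2 and 16.8 CPM in Kaede-green libraries and 5.09, 6.33, 9.44 and 9.37 CPM in the Kaede-red ones, and its 72h levels were 7.31, 12.8, 11.4 and 10.1 CPM against 8.34, 5.72, 3.63 and 7.33 CPM. The colours overlapped at both times. The adjusted p over both times ran from 0.0359 to 0.291 with single libraries left out and passed in 1 case, without Kaede-green 24h replicate 1.

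Mybbp1a, a nucleolar protein that binds MYB and represses transcription, was close to even over both times at a log2 fold change of 0.06 (95% interval -0.26 to 0.37). Its 24h levels were 7.81, 9.83, 15.8 and 15.9 CPM in Kaede-green libraries and 14.6, 15.4, 18.1 and 18.8 CPM in the Kaede-red ones, and its 72h levels were 20.5, 18.0, 20.7 and 21.1 CPM against 17.2, 13.7, 16.3 and 18.3 CPM. The Kaede-green libraries at 72h lay above all Kaede-green libraries at 24h.

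Among the 12 small subunit factors, 7 were above and 5 below 0 over both times, and none was called. Those with the lowest p were at the outer ends. Imp4 was at 0.68 (95% interval 0.09 to 1.27, adjusted p = 0.0973), and its 72h levels were 0.731, 3.36, 3.89 and 6.503 CPM in Kaede-green libraries and 5.56, 3.91, 5.14 and 3.85 CPM in the Kaede-red ones. With single libraries left out its adjusted p over both times ran from 0.0291 to 0.238, and it passed in 1 case, without Kaede-green 72h replicate 4, the highest of those. Wdr75, a WD-repeat protein of early precursors, had the highest value, 0.76 (-0.05 to 1.56, adjusted p = 0.184). It was rare, at 0.558, 1.23, 1.78 and 0 CPM in Kaede-green libraries and 2.02, 2.55, 1.27 and 1.94 CPM in the Kaede-red ones at 24h, and at 1.83, 2.75, 1.46 and 0.520 CPM against 2.70, 2.37, 1.66 and 2.40 CPM at 72h. The 0 of Kaede-green 24h replicate 4 allowed up to 1.23 CPM (3 counts).

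Wdr43 and Tsr1 were at the lower end. Wdr43, which like Wdr75 acts early on the precursor, had 10.04, 7.78, 13.0 and 47.0 CPM in Kaede-green libraries and 12.6, 12.8, 16.9 and 15.96 CPM in the Kaede-red ones at 24h. At 72h it had 16.8, 29.3, 17.5 and 11.4 CPM against 12.0, 13.6, 13.8 and 14.4 CPM, and the log2 fold change over both times was -0.45 (95% interval -0.93 to 0.03, adjusted p = 0.189). Kaede-green 24h replicate 4 stood above all other libraries. Tsr1, a late factor of the small subunit in the cytoplasm, was at 3.90, 0.819, 5.35 and 10.6 CPM against 2.72, 3.04, 6.17 and 5.75 CPM at 24h. At 72h it was at 6.58, 6.11, 5.59 and 4.94 CPM in Kaede-green libraries and 3.09, 3.35, 4.08 and 4.25 CPM in the Kaede-red ones, with no overlap and a log2 fold change of -0.65 (-1.41 to 0.11, adjusted p = 0.249). Over both times it was at -0.45 (adjusted p = 0.261). With the Rn45s share as a covariate the directions of Wdr43 and Tsr1 over both times turned, to 0.13 and 0.21, and that of Tsr1 at 72h turned to 0.15.

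Of the 16 large subunit factors, 10 were above 0 over both times and 14 at 24h, against 5 at 72h. Rrp1, the nucleolar homolog of a yeast processing factor, was the only factor with all Kaede-red above all Kaede-green libraries at 72h. Its 72h levels were 9.14, 9.77, 9.73 and 4.94 CPM in Kaede-green libraries and 12.7, 11.04, 12.4 and 15.5 CPM in the Kaede-red ones, a log2 fold change of 0.63 (95% interval 0.12 to 1.14, adjusted p = 0.0789). At 24h it stood at 7.25, 6.55, 7.39 and 10.6 CPM against 8.96, 8.76, 5.99 and 10.6 CPM, and the groups overlapped. Over both times it was at 0.38 (0.01 to 0.75, adjusted p = 0.145). Gnl3 (nucleostemin, a nucleolar GTPase) was at 0.48 over both times (-0.13 to 1.08, adjusted p = 0.273). Its levels were 0.558, 1.23, 4.59 and 3.27 CPM in Kaede-green libraries and 3.43, 4.26, 5.08 and 6.27 CPM in the Kaede-red ones at 24h, and 6.21, 4.58, 1.22 and 4.94 CPM against 4.42, 3.78, 6.35 and 3.92 CPM at 72h.

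The 3 genes of the complex of Pes1, Bop1 and Wdr12, which acts in large subunit processing, were at 0.11, 0.44 and -0.08 over both times, with intervals of -0.33 to 0.54, -0.15 to 1.03 and -0.99 to 0.83. Of the RNA polymerase I subunits, Polr1a, the largest subunit, was at 0.01 (-0.48 to 0.49) and Polr1b at 0.24 (-0.69 to 1.17). None of these 5 genes was called in any of the 6 comparisons.

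**Figure D2:**
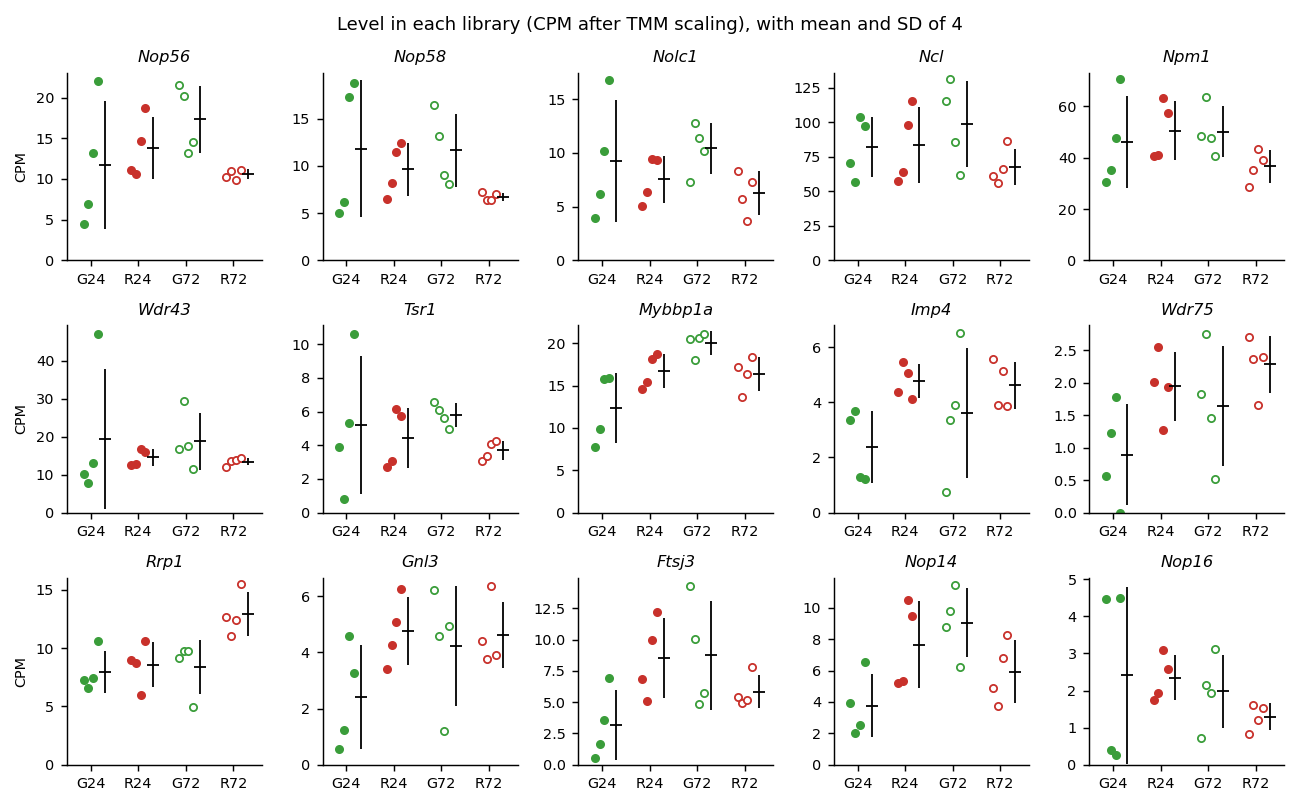
CPM after TMM scaling (y axis) in each of the 16 libraries for 15 factors, with Kaede-green (green) and Kaede-red (red) libraries at 24h (filled) and 72h (open), and the mean and SD of 4 beside them. The Kaede-red libraries at 72h lie close together and below the Kaede-green ones for Nop56, Nop58 and Tsr1 and above them for Rrp1, and Nop56 and Nop58 are the most spread in the Kaede-green libraries at 24h. Over all 43 factors the SD was highest in that group for 24, in Kaede-green libraries at 72h for 14 and in Kaede-red libraries at 24h for 5.

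Between the times, 0 of 43 factors were called within Kaede-green cells and 0 of 43 within Kaede-red cells. In Kaede-green cells edgeR called 0% of all genes at this threshold, with 3 of 43 factors and 8.66% of all genes at an unadjusted p under 0.05, and DESeq2 called 0 of the 25 factors to which it gave an adjusted p, against 0.247% of its genes. Those 3 factors were Nop14, at 1.31 (95% interval 0.51 to 2.10, adjusted p = 0.401), Ftsj3, at 1.35 (0.44 to 2.25, adjusted p = 0.401), and Mybbp1a, at 0.67 (0.19 to 1.14, adjusted p = 0.401). Of these, Mybbp1a had groups without overlap, 1 of 43 factors against 3% of all genes. In Kaede-red cells edgeR called 8.68% of all genes and none of the factors, 5 of 43 factors had an unadjusted p under 0.05 against 23% of all genes, and DESeq2 called 0 of 42 factors against 13.3%.

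The 5 factors were Rrs1, Rrp1, Nip7, Nop10 and Npm1. Rrs1, which helps to place the shortest ribosomal RNA in the large subunit, was at -0.82 (95% interval -1.48 to -0.16, adjusted p = 0.116), and Rrp1, in the other direction, at 0.57 (0.11 to 1.04, adjusted p = 0.119). In Kaede-red cells, 32 of 43 factors lay below 0 at 72h against 24h, with a median of -0.11, whereas the median of all genes was -0.01. This direction did not hold with the Rn45s share as a covariate, where 22 factors lay above and 21 below 0. Without Kaede-red 24h replicate 4, 18 lay above and 25 below 0. Groups without overlap were found for Rrp1, higher at 72h in every library, and for Nop16 and Rrp1b, lower in every library, 3 of 43 factors against 20.6% of all genes. Nop16, a large subunit factor, gave 1.76, 1.95, 3.08 and 2.58 CPM at 24h and 0.822, 1.61, 1.21 and 1.54 CPM at 72h (log2 fold change -0.81, 95% interval -1.84 to 0.21, adjusted p = 0.353).

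The difference between the colours was tested for a change from 24h to 72h in the same fit. Again 0 of 43 factors were called by edgeR, against 0.757% of all genes, and 6 of 43 had an unadjusted p under 0.05, against 15.3%. The median of this change was -0.41 over the factors and -0.07 over all genes, and 32 of 43 factors were below 0. Ftsj3 had a change of -1.89 (95% interval -3.01 to -0.76, adjusted p = 0.0800), and Nop14 of -1.67 (-2.67 to -0.67, adjusted p = 0.0800). DESeq2 called both, at -1.94 (adjusted p = 0.0314) and -1.68 (adjusted p = 0.0326), 2 of the 19 factors to which it gave an adjusted p, against 7.65% of its genes. With single libraries left out the edgeR adjusted p ran from 0.0293 to 0.211 for Ftsj3 and from 0.0352 to 0.197 for Nop14, and both passed only without Kaede-green 24h replicate 4.

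At 72h Ftsj3 stood at 14.2, 10.1, 4.87 and 5.72 CPM in Kaede-green libraries and 5.44, 4.97, 5.14 and 7.81 CPM in the Kaede-red ones, so the Kaede-green libraries fell into a higher and a lower pair. The 72h log2 fold change was -0.53 (-1.25 to 0.19, adjusted p = 0.333). Nop14 gave 8.77, 9.77, 11.4 and 6.24 CPM against 4.89, 3.76, 6.81 and 8.26 CPM, and -0.62 (-1.26 to 0.01, adjusted p = 0.179). For both genes the Kaede-green mean was the lowest of the 4 groups at 24h and the highest at 72h.

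**Figure D3:**
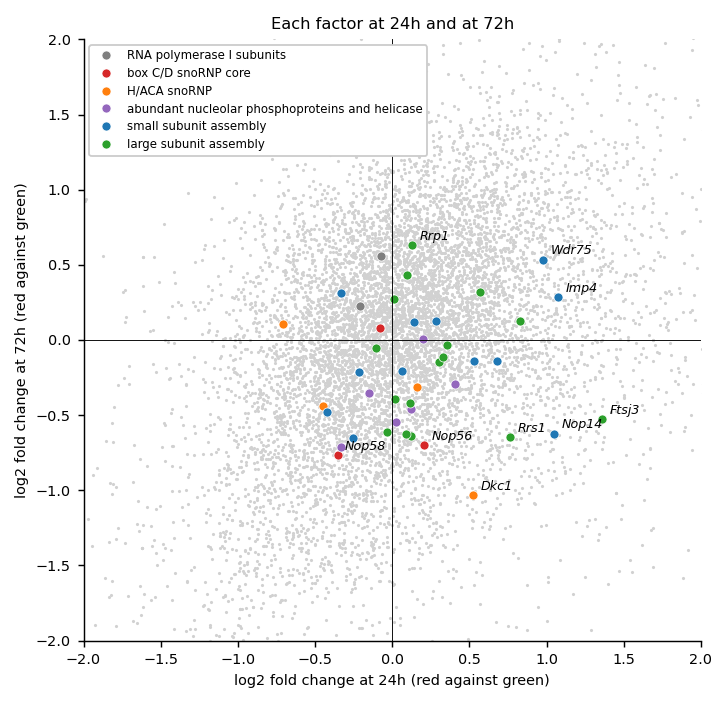
Log2 fold change of Kaede-red against Kaede-green cells at 24h (x axis) and at 72h (y axis) for the 43 factors, coloured by role, over all genes tested (grey; genes beyond 2 on either axis are not shown). Ftsj3 and Nop14 lie to the right and below 0, at 1.36 and 1.05 at 24h and -0.53 and -0.62 at 72h, and the cloud of factors is shifted below 0 on the y axis.

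Seen beside the other genes of the pathway, the factors and the ribosomal proteins they work with had unlike values. Of 78 cytoplasmic ribosomal protein genes, found by symbol, 69 were lower and 0 higher in Kaede-red cells over both times, with a median log2 fold change of -1.02. Rps14 and Rps23, of the small subunit, were lower by 2.00 and 1.67 on the log2 scale, and Rpl22, of the large subunit, by 1.54. The medians were -0.94 at 24h, with 57 genes lower, and -1.28 at 72h, with 65 lower. With each library's Rn45s share as a covariate 22 of these genes were called lower over both times, with the median at -0.88, and with offsets for GC content and length 66 were. Without TMM scaling, where the median of all genes moved to 2.20, the ribosomal protein genes were above 0 at 1.08 and the factors at 2.11, so that their order relative to all genes was kept. A test between the lists was not made.

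As shares of the counts outside Rn45s, Lars2 and Mir6236, which together took most reads of Kaede-green libraries, the factors held 0.261% ± 0.101 (SD, n = 4) in Kaede-green libraries at 24h and 0.330% ± 0.0842 in the Kaede-red ones. At 72h the shares were 0.304% ± 0.0675 and 0.270% ± 0.0336. The ribosomal protein genes held 8.18% ± 1.24 against 5.04% ± 0.380 at 24h and 7.20% ± 1.40 against 3.29% ± 0.559 at 72h. For the factors the libraries of both colours overlapped at both times, and for the ribosomal protein genes they did not overlap at either.

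**Figure D4:**
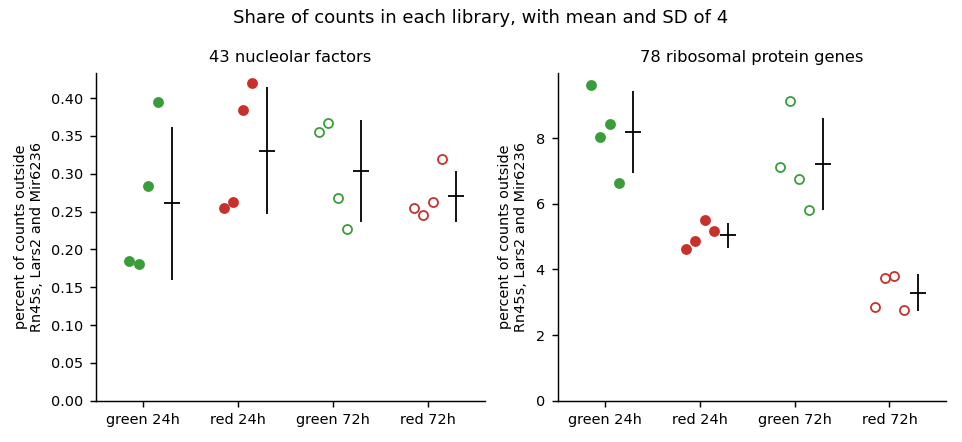
Percent of each library's counts outside Rn45s, Lars2 and Mir6236 (y axis) that fell on the 43 factors (left) and on 78 ribosomal protein genes (right), per library, with the mean and SD of 4. The factors overlap between colours at both times, from 0.181 to 0.420% at 24h and from 0.228 to 0.367% at 72h, whereas the ribosomal protein genes are between 2.75 and 5.49% in all Kaede-red and between 5.81 and 9.63% in all Kaede-green libraries.

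A wider set of 128 tested biogenesis genes that are not among the 43 was read the same way, and over both times 8 were higher in Kaede-red cells, 4 were lower and the median was 0.23. This was 9.38% of the set, against the 20.3% of all genes given above, so the set's share lay below the background. The higher ones were Utp14a (1.22, adjusted p = 0.00347), Rrp7a (0.87, adjusted p = 0.0137), Utp6 (0.67, adjusted p = 0.0129), Ddx49 and Diexf of the small subunit, Ddx24 (0.73, adjusted p = 0.00225) and Ddx54 of the large subunit, and Tgs1, which caps small nucleolar RNAs. The lower ones were C1d (-0.96, adjusted p = 5.00e-04), a partner of the nuclear exosome, Polr1d (-0.82, adjusted p = 0.00105), a subunit shared by RNA polymerases I and III, Mdn1 (-0.64, adjusted p = 0.0136), the large ATPase of the large subunit, and Taf1d (-0.72, adjusted p = 0.0452), of the RNA polymerase I promoter factor. At 24h 4 were higher and 0 lower (3.12% of the set against 7.5% of all genes), and at 72h 1 was higher and 7 were lower (6.25% against 16.8%). With the Rn45s share as a covariate none of the set was called in these 3 comparisons. By list, 5 of 44 small subunit, 2 of 44 large subunit and 1 of 11 snoRNP factors were higher, whereas 2 of 14 RNA polymerase I, 1 of 44 large subunit and 1 of 15 exosome genes were lower.

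**Figure D5:**
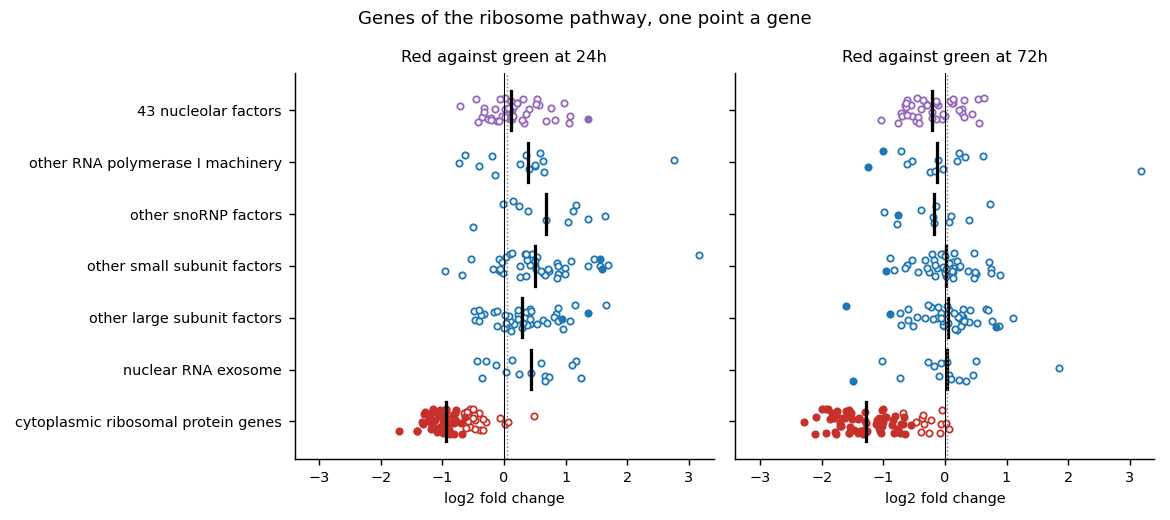
Log2 fold change of Kaede-red against Kaede-green cells (x axis) at 24h and 72h, one point a gene, for the 43 factors, 5 lists of other biogenesis genes and the cytoplasmic ribosomal protein genes, with filled points for an adjusted p under 0.05, black bars for medians and a dotted line for the median of all genes. The factors' median lies close to that of all genes at 24h (0.12 against 0.05) and below it at 72h (-0.20 against 0.03), and the ribosomal protein genes lie at -0.94 and -1.28.

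Myc itself was called over both times, at 0.75 (95% interval 0.20 to 1.3, adjusted p = 0.0469). It stood at 0.558, 2.46, 2.29 and 1.23 CPM in Kaede-green libraries and 4.57, 4.26, 3.81 and 3.94 CPM in the Kaede-red ones at 24h, and at 2.56, 3.05, 2.92 and 5.20 CPM against 3.01, 4.77, 3.33 and 5.26 CPM at 72h. The colours did not overlap at 24h (1.24, adjusted p = 0.0654) and did at 72h (0.26, adjusted p = 0.672). In Kaede-green 24h replicates 1 and 4 Myc had no more than 3 counts, which stood for 1.67 and 1.23 CPM there. The call of Myc lay close to the threshold and was not followed under the alternatives. Rn45s went the other way, at -2.36 over both times (adjusted p = 0.000690). Reads on this gene come from the precursor and from the mature ribosomal RNAs within it, which the counts cannot tell apart.

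Promoter windows of RefSeq (GRCm38.p6, 250 bases before and 50 after the start) were found for 38 of the 43 factors and searched for 5 sequence motifs on both strands. The E-box CACGTG, the letters that MYC and MAX bind, was in the windows of 9 of 38 factors (23.7%), against 8.1% of all 27025 genes with a window and 12.4% of the 7692 tested genes that had one. These 9 were Imp4, Mybbp1a, Nop2, Pes1, Tsr1, Utp18, Utp20, Utp4 and Wdr43. The ETS core CGGAAG was in 57.9% (18.8% of all genes, 38.8% of tested ones), the GC box GGGCGG in 76.3% (38.2 and 70.1%), CCAAT in 36.8% (41.1 and 43.5%) and TATAAA in 7.9% (15.7 and 8.9%). CACGTG reads the same on both strands, and none of the 5 motifs contains another. A match describes the letters in the window and is not a bound site. The 9 factors with CACGTG had a median log2 fold change of 0.06 over both times, of 0.33 at 24h and of -0.14 at 72h, and the 29 without had -0.07, 0.11 and -0.31, and 0 of 9 and 1 of 29 were called at 24h.

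The 250 bases before the start are shown for the 3 factors with CACGTG in that stretch and, for contrast, for Ftsj3, the called factor, and Nop58, the factor with the lowest p over both times, which both lack it. They run from 5′ to 3′ on the gene's strand, and capitals mark the E-box, the ETS core and the GC box named above or their reverse complements.
Imp4, chr1:34439579-34439828, plus strand: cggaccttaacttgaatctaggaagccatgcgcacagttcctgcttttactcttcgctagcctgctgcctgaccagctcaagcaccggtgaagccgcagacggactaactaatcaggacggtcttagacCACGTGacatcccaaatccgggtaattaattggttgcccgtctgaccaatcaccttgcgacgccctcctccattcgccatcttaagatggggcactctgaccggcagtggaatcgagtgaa
Nop2, chr6:125131633-125131882, plus strand: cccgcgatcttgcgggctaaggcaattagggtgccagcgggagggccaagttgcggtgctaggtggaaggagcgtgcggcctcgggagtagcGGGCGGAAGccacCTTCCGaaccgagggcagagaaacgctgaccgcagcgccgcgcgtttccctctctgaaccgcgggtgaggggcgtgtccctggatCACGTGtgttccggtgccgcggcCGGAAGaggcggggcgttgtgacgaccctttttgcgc
Utp18, chr11:93885767-93886016, minus strand: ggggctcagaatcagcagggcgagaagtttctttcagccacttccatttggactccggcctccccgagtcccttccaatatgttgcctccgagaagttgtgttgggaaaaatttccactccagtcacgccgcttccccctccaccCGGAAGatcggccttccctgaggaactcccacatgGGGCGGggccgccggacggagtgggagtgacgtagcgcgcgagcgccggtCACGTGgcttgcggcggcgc
Ftsj3, chr11:106256085-106256334, minus strand: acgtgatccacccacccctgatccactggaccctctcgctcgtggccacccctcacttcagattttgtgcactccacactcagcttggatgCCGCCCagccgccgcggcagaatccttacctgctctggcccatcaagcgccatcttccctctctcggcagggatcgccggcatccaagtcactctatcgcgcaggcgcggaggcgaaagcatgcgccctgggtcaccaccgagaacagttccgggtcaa
Nop58, chr1:59684756-59685005, plus strand: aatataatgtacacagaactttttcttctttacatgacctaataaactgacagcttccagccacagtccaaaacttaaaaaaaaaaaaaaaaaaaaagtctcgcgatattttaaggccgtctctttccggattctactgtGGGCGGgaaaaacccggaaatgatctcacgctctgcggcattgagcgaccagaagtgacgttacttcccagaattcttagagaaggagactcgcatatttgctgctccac
Imp4 holds CACGTG 121 bases before the start, and Nop2, the methyltransferase of a cytosine in large subunit RNA, holds it beside 3 copies of CGGAAG. Over both times Nop2 was at 0.16 (95% interval -0.30 to 0.63, adjusted p = 0.672) and Utp18, a small subunit factor, at 0.19 (-0.38 to 0.76, adjusted p = 0.681).

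A feature that the choice did not use is that 8 of the 43 factors (18.6%) hold annotated genes of small nucleolar RNAs within their own span, against 2.07% of 20504 coding genes in the files. They are Nop56 with 5, Nop58 with 4, Ncl, Wdr43 and Gnl3 with 3 each, Ppan and Tsr1 with 2 each and Dkc1 with 1. Of these, 4 (Nop58, Wdr43, Tsr1 and Gnl3) were among the 8 factors with the lowest p over both times, 3 of them below 0 and Gnl3 above. At 72h 7 of the 8 were below 0, with Gnl3 the exception, beside 28 of all 43 factors. With the Rn45s share as a covariate 28 of the 43 lay above 0 at 72h. Ncl and Tsr1 turned above 0 there, whereas Nop56 and Nop58 stayed below. A link between these RNAs and the values was not tested. How reads from these RNAs and from genes on the other strand were counted was not given in the sources used here. Exons of 19 factors overlap those of another gene, most on the opposite strand, as for Nop56 with Idh3b and Nop14 with Gm15522, so their values are less certain.

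Across the 43 factors, the log2 fold change over both times had a Spearman's rho of 0.02 with exon length and of 0.09 with GC content, and at 72h it had a rho of -0.30 with the mean log2 CPM, as a description over genes of the same libraries. Some markers of other cells also differed between the colours. The summed level of 7 genes of dividing cells (Mki67, Top2a, Birc5, Ccnb1, Cdk1, Mcm5 and Pcna) was 53.3 to 86.4 CPM in Kaede-green and 40.5 to 45.8 CPM in Kaede-red libraries at 72h, and 48.8 to 67.8 against 46.0 to 78.2 CPM at 24h. Of these 7 only Top2a was called at 72h, lower in Kaede-red cells (-0.86, edgeR adjusted p = 0.024). That of 4 fibroblast genes (Col1a1, Col1a2, Col3a1 and Dcn) was 42.4 to 47.1 against 10.7 to 18.0 CPM at 72h and 38.7 to 49.9 against 18.8 to 35.0 CPM at 24h, none of them at 0 in either group, whereas all 4 tumour epithelial genes (Epcam, Krt8, Krt18 and Krt19) were at 0 in Kaede-green cells at 72h and summed to 0 to 0.605 CPM in Kaede-red cells. The summed level of 3 endothelial genes (Pecam1, Cdh5 and Kdr) was 9.77 to 19.0 against 21.9 to 36.7 CPM at 72h and 10.04 to 15.98 against 17.8 to 22.5 CPM at 24h, and over both times Pecam1 and Kdr were called higher and Cdh5 lower in Kaede-red cells. Of 6 neutrophil genes 1, Csf3r, passed the filter, and it was higher at 72h by 1.12 (adjusted p = 0.000941). Of the 6 markers of the sorted cells 5 were called higher in Kaede-red cells at 72h, all but Lyz2 (-0.68, edgeR adjusted p = 0.0937). At 24h 2 were called higher, Adgre1 and Cd68, and Lyz2 was called lower (-1.81, adjusted p = 8.73e-05). Over both times 4 were called higher, and Lyz2 was again called lower (-1.25, adjusted p = 1.97e-05). The part of these cells in the results was not tested.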

How the data were processed

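Bulk RNA-seq libraries of sorted CD11b+ cells were made by the authors from 5 ng of total RNA with the SMARTer stranded total RNA-seq pico kit. Per the paper and the submitters' processing notes, reads were trimmed with Trim Galore, checked with FastQC, aligned to mm10 with HISAT2 and counted per gene with featureCounts. Versions, annotation and strand setting were not given in the sources used here. The deposited values are whole read counts per gene, not normalized, for 16 libraries. The combined table held the same 16 columns and was not used.

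Groups were taken from the titles. Genes were filtered with filterByExpr, scaled with TMM and tested with the quasi-likelihood test of edgeR 4.0.16 (R 4.3.3), with 1 mean per group in a single fit of all libraries and Benjamini-Hochberg adjustment over 9642 genes. Genes with an adjusted p under 0.05 were called. Log2 CPM used a prior count of 2, DESeq2 1.42.0 was an alternative, and the fit was tested on simulated data. Standard errors were derived from the test, as the absolute log2 fold change divided by the square root of its F statistic. Intervals are 95%, were built from these errors with a t distribution and cover the spread between libraries. Limits at 0 counts cover counting error only. No pair of replicates was a copy of another, with a chi-square per gene of at least 3.21. Positions and exon lengths (union of all exons) came from GENCODE M21. Members and lists were chosen with earlier results of these data known. Values in every library are given for the 8 factors of lowest p over both times, for factors called elsewhere and for the 3 of highest level, and further ones were named after their values were seen (Nop56, Nop14, Dkc1, Tsr1 at 72h and Nop16 among them). Alternatives were library size alone, RLE factors, other filters, only the groups compared, a replicate block, each library left out, Rn45s left out or its share as a covariate, GC and length offsets, thinned Kaede-red libraries and DESeq2.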

Additional observations from a re-analysis of the deposited data

Results flagged for a closer look

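In 1 of 64 groups of 4 libraries examined for the named factors, a single library stood apart. Rrp1 was at a log2 CPM of 2.35 in Kaede-green 72h replicate 4, whereas the other 3 libraries of that group were at 3.22 to 3.31, and the gap took 0.901 of the group's whole range, above the critical value of 0.829. Chance alone is known to set apart about 1 group in 20. The cause was not tested.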

How the results depend on the processing

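The counts of called factors were small under every alternative that kept a composition scaling, so each moved easily. Library size alone moved the median of all genes up by 2.15, 2.28 and 2.01 on the log2 scale (both times, 24h and 72h, in that order) and called 43, 43 and 41 factors as higher, whereas relative to all genes the factors' medians were -0.09, 0.04 and -0.30. The same shift carried Nop58 (1.62), Nolc1 (1.61), Wdr43 (1.79) and Tsr1 (1.70) over both times and Nop56 (1.37), Nop58 (1.33), Ncl (1.64) and Npm1 (1.60) at 72h above 0, and relative to the median of all genes all 8 stayed below 0, from -0.71 to -0.41. A covariate for the Rn45s share gave 0 factors called at 24h, and Nop58 (0.061), Wdr43 (0.13) and Tsr1 (0.21) over both times and Ncl (0.13) and Npm1 (0.09) at 72h reversed. That covariate also took the calls over all genes from 1959 to 156 over both times, from 723 to 206 at 24h and from 1622 to 101 at 72h. Within each time the share did not overlap between the colours, so these changes cannot be told apart from colour. Without a filter 1 factor was called over both times, 2 at 24h, 1 at 72h and 2 for the change with time. With at least 10 counts in every library the numbers were 1, 0 and 1 in that order. The groups compared alone gave 0 at 24h, 3 at 72h and 2 between the times in Kaede-red cells. Rn45s left out gave 1 over both times (1920 of all genes). GC content and length offsets gave 1 over both times and 2 at 72h (1868 and 1447 of all genes). DESeq2 gave 2 for the change with time (341 of all genes). Leaving out each library in turn gave 0 to 2 called over both times and at 24h, 0 to 1 at 72h and 0 to 2 for the change with time. Over all genes those fits called 1582 to 2082 over both times and 503 to 765 at 24h. At 72h they called 1146 to 1910, and 2 to 155 for the change with time. Where the cause of a change is not plain from the alternative it was not tested.

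No source used here says that a replicate number marks a shared mouse. Same-numbered libraries deviated from their group means with correlations of 0.049 to 0.153 at 24h and of -0.018 to 0.029 at 72h. A fit with a replicate block called 0 factors over both times, 1 at 24h (Ftsj3), 2 at 72h (Nop56 and Nop58) and 1 for the change with time (Ftsj3). Over all genes the block moved the calls from 1959 to 1784 over both times and from 723 to 700 at 24h. At 72h it moved them from 1622 to 1562, and for the change with time from 73 to 165. Kaede-green 24h replicate 2 correlated better with Kaede-red replicate 1 (0.147) than with its own number (0.092). Among the 16 factor values recomputed under the alternatives, those that changed sign did so under library size alone or the Rn45s covariate. The values of further factors were not all followed, and some of them, such as Dkc1 over both times, changed sign with single libraries left out. Without counting library size the factors' median ranged from -0.08 to 0.28 over both times, from -0.02 to 0.36 at 24h and from -0.30 to 0.10 at 72h. Depth in Kaede-green libraries limits the rare factors most.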
